A study of Mus musculus with 10 samples.

Results

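Heme is made from glycine and succinyl-CoA in a chain of enzymatic steps that begin and end in mitochondria, and the liver makes much of it for its cytochrome P450 enzymes. The first step, carried out by 5-aminolevulinate synthase, sets the rate of the pathway. Alas1 encodes the form found in most tissues, and heme lowers its transcript and its protein. ClpX is a mitochondrial ATPase that unfolds proteins. It feeds some of them to the protease ClpP, and it acts on the synthase itself, helping its cofactor to enter and taking part in its heme-dependent turnover. Heme oxygenase 1, encoded by Hmox1, breaks heme down to biliverdin, carbon monoxide and iron. It is a well-known target of the transcription factor Nrf2, is held back by the repressor Bach1, and is abundant in the macrophages of the liver.

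The 9 genes described here are Clpx, Alas1, Alad, Uros, Urod, Cpox, Ppox, Fech and Hmox1. They are 9 of 21939 genes in the table, and all 9 were among the 13641 genes tested because their counts over the 10 libraries summed to 10 or more. They were chosen by name with results of these data in view. Clpx was proposed for its low level in p65 KO against control hepatocytes, and the values of all 9 are therefore given in that comparison as a description, with no p-value, and nothing is read from how many of them passed there. The question of the study was how Nrf2, the regulator of antioxidant defence, and p65, a subunit of NF-κB encoded by Rela, act together in hepatocytes.

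RNA of freshly isolated hepatocytes was measured by sequencing of poly-A RNA, with 1 library per mouse. All mice were male and given as 8 to 9 weeks old, where the labels do not say whether at injection or at sampling, and had received AAV8Cre 12 days before sampling, an adeno-associated virus whose Cre recombinase is driven by the hepatocyte-specific thyroxine-binding globulin promoter. Control mice were C57BL6/j with the virus but no floxed allele (n = 3). Nrf2 KO mice carried Nrf2 flox/flox alleles (n = 2), p65 KO mice p65 flox/flox alleles (n = 2), and DKO mice both (n = 3). The study's methods give the floxed mice the same genetic background as the controls, which were not floxed littermates. The study states that all mice were injected and killed in the morning. Total counts per library were between 33707165 and 49897382. The samples were bulk preparations, in which fewer cells of a type and less RNA per cell cannot be told apart.

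The hepatocyte identity of the libraries was checked with 10 markers. Albumin (Alb), the most abundant, was between 2472214 and 4159525 normalized counts, and none of the 10 was absent. Normalized counts are counts divided by TMM-scaled library sizes and brought to a common depth. Since the table holds 1 total per gene, the loss of a floxed exon is not visible in it. Nfe2l2, which encodes Nrf2, was between 1990 and 2318 normalized counts in control, 4739 and 5005 in the libraries labelled Nrf2 KO, and between 3434 and 5240 in those labelled DKO. Rela was 1256 ± 29.9 (SD, n = 3) in control libraries, and the p65 KO libraries had 1196 ± 18.6 (SD, n = 2). The libraries labelled DKO had 1488, 1241 and 1034, a mean of 1255, so that the level of Rela did not set them apart from control. By RT-qPCR and Western blot, the study itself reports efficient knockout of both genes in hepatocytes 12 days after the virus.

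Of the 12 markers of Kupffer cells and macrophages, all 12 were detected, with Cd5l as the most abundant. Their summed level was 375.5, 950.9 and 726.6 normalized counts in control, 815.6 and 262.7 in Nrf2 KO, 6236 and 4518 in p65 KO, and 2935, 2041 and 1706 in DKO. Both p65 KO libraries lay above all DKO libraries, and all DKO libraries above all control and Nrf2 KO libraries. Markers of stellate cells had a summed level 7.49 times control in p65 KO and 2.22 times in DKO, and those of sinusoidal endothelial cells 3.76 and 2.01 times. Those of monocytes and dendritic cells were at 9.65 and 4.37 times. Neutrophil markers (7.56 and 5.4 times) and T and NK cell markers (13.4 and 14.4 times) summed to at most 50.8 normalized counts in any library. B cell markers were at 0.291 and 1.44 times control. These differences stand beside every comparison in which p65 was lost.

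Clpx is on mouse chromosome 9 (GRCm39, 65201540 to 65239568, forward strand), and Alas1 lies on the same chromosome at 106110642 to 106135734, on the reverse strand. Alad and Urod are on chromosome 4, Uros on 7, Cpox on 16, Ppox on 1 and Fech on 18. The sequences around their start sites are shown because the largest differences among the 9 genes were those of these 2 genes. Each runs from 250 bases before to 50 after a RefSeq start site, 5′ to 3′ on the gene's strand, and matched GRCm39 exactly once, at chr9:65201292-65201591 for Clpx and at chr9:106124880-106125179 for Alas1. Capitals mark the NRF1 word, which is the recognition word of the factor NRF1 (a gene other than Nrf2), on either strand and with any base at its sixth position.
Clpx: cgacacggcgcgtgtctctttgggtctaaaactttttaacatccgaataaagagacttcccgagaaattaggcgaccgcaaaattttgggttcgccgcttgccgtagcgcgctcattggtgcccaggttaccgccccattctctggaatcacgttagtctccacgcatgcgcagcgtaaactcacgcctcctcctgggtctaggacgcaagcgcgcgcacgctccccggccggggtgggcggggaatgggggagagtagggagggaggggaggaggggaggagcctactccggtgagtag
Alas1: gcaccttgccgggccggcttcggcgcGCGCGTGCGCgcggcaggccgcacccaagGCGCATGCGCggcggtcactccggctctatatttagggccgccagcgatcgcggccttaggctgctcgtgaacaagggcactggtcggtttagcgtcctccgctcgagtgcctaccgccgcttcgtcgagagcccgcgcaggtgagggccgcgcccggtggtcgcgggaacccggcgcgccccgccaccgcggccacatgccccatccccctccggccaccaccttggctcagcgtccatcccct

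The Clpx window held none of the words searched and was 60.0% G and C. The Alas1 window shown was 73.3% G and C and held the NRF1 word at 2 places. These were 224 and 195 bases before the start of that window, read from the first base of the word. Alas1 has a second window with another start, and there the same words lie 1 and 30 bases after that start. Of the 9 genes, 7 had windows in the RefSeq table (10 windows in all). The NRF1 word was in windows of Alas1 and Uros and in 4.6% of all 32851 windows. The E-box CACGTG was in windows of Alad, Uros and Urod and in 7.15% of all. The antioxidant response element core TGACNNNGC was in none of the 10 windows against 12.4% of all, and the NF-κB consensus in none against 4.51%. The D-box words TTATGTAA and TTACGTAA and the RORE consensus were in none either, against 0.938%, 0.119% and 0.384% of all windows. A match is a description of these letters, and the absence of a match says only that they are not in these windows.

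Clpx had the widest difference of the 9 members in p65 KO against control, the comparison it was chosen on. Its normalized counts were 8910, 9831 and 7825 in control, 7332 and 4522 in Nrf2 KO, 1640 and 1644 in p65 KO, and 3179, 2910 and 2168 in DKO. The 4 genotypes did not overlap, in the order control, Nrf2 KO, DKO and p65 KO, and the pair of p65 KO libraries was nearly identical. All libraries of Nrf2 KO lay below every control library for 13.6% of all genes, those of p65 KO for 23.8% and those of DKO for 13.2%. In p65 KO the mean of Clpx was 0.185 times that of control, a log2 fold change of -2.43 (SE 0.23). The neighbours control and Nrf2 KO did not differ past the threshold (log2 fold change -0.58, SE 0.211, edgeR adjusted p = 0.379), and this value rested on single libraries, at -0.97 without Nrf2 KO 1 and -0.27 without Nrf2 KO 2. DKO lay above p65 KO by 0.75 on the log2 scale (SE 0.214), which is given with no test because the p65 KO libraries are those on which the gene was chosen.

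The comparison of DKO with Nrf2 KO contrasts the presence and loss of p65 in libraries other than those on which Clpx was chosen, although the p65 KO and control libraries also enter the estimate of the spread. There, 1 of the 9 genes passed an adjusted p of 0.05, against 0.513% of all genes tested, and this was Clpx, which fell with a log2 fold change of -1.11 (SE 0.205, edgeR adjusted p = 0.046). All 3 DKO libraries were below both Nrf2 KO libraries, as were the DKO libraries for 16.4% of all genes. The call was close to the threshold. With DKO and Nrf2 KO alone in the model, it was lost (log2 fold change -1.10, edgeR adjusted p = 0.174). It held without Nrf2 KO 2 (log2 fold change -1.41, edgeR adjusted p = 0.0336) but was lost when any other of the 10 libraries was left out, most of all without Nrf2 KO 1 (-0.72, edgeR adjusted p = 0.322), and in the other 8 cases the log2 fold change was between -1.22 and -0.95 and the adjusted p between 0.0551 and 0.0831. With the replicate number as a block, the log2 fold change was -0.98 (SE 0.185) and the adjusted p 0.0908.

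In DKO against control, the log2 fold change of Clpx was -1.69 (SE 0.191), and between -1.80 and -1.54 without 1 library at a time. It is given with no test because the control libraries are among those on which the gene was chosen. The difference of differences, DKO against p65 KO minus Nrf2 KO against control, was 1.32 for Clpx (SE 0.3), also with no test because it contains the comparison that chose the gene. None of the 9 members passed it with edgeR (0 of 9, against 0.469% of all genes), while 5 had an unadjusted p under 0.05 and DESeq2 called 1, Clpx, from which nothing is read.

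**Figure D1:**
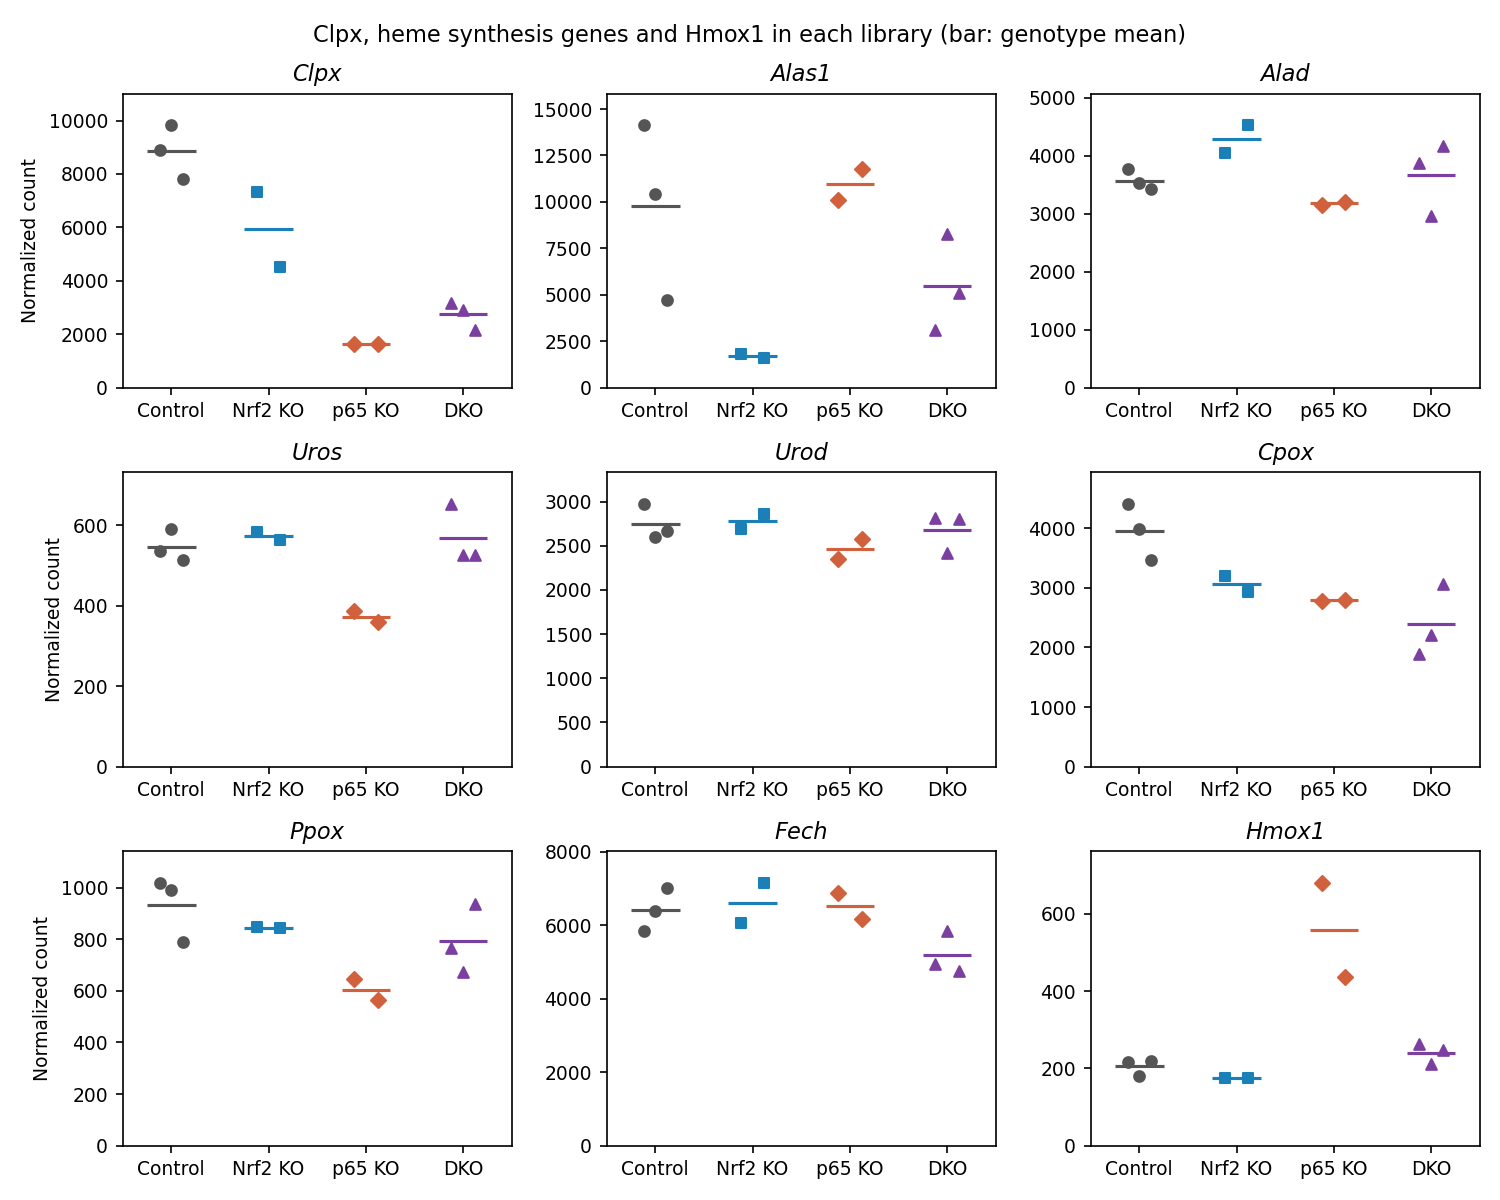
Normalized counts (vertical axes, starting at 0) of the 9 genes in each library by genotype (horizontal axes), 1 point per library with a bar at the genotype mean. Clpx sits between 7825 and 9831 in control and at 1640 and 1644 in p65 KO, Alas1 is lowest in Nrf2 KO at 1786 and 1594, and Hmox1 is highest in p65 KO at 680 and 438.

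The protease partner of ClpX is encoded by Clpp. It is set beside Clpx as a description, since Clpx was chosen on p65 KO against control. Clpp was 1390, 1272 and 1194 normalized counts in control and 867 and 1005 in p65 KO, and it fell in p65 KO with a log2 fold change of -0.46 (SE 0.12, edgeR adjusted p = 0.0305). Per kb of transcript, the level of Clpx was between 2.21 and 2.67 times that of Clpp in control, 1.89 and 1.14 times in Nrf2 KO, 0.653 and 0.565 times in p65 KO, and between 0.622 and 0.891 times in DKO. Clpx was thus above its partner in every control and Nrf2 KO library and below it in every library without p65. Among 20 further genes of mitochondrial proteases, chaperones and processing peptidases, Clpp included, 4 fell and none rose in p65 KO against control, where 14.9% of all genes passed. The other 3 were Lonp1, an ATP-dependent matrix protease, with a log2 fold change of -0.34 (SE 0.10, edgeR adjusted p = 0.0472), Phb1, which encodes prohibitin, at -0.48 (SE 0.14, edgeR adjusted p = 0.0378), and Pmpcb, the catalytic subunit of the peptidase that removes import signals, at -0.46 (SE 0.14, edgeR adjusted p = 0.0496). The median log2 fold change of the 20 was -0.23, against 0.00 for all genes tested, and all 20 were within -0.57 and 0.10. Clpx was chosen for its low level there, so nothing is read from its distance to them. In DKO against control and against Nrf2 KO, where 5.45% and 0.513% of all genes passed, 0 of the 20 passed with edgeR, with 9 and 2 at an unadjusted p under 0.05 and 3 and 0 by DESeq2.

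The genes whose level varied most like Clpx over the 10 libraries were sought among 10181 genes whose mean normalized count was 50 or more, by Pearson's r of log2(normalized count + 1). The 5 highest were Mreg (0.98), Ccng2 (0.975), Tspan14 (0.968), Lnx2 (0.966) and Mad2l2 (0.966). The lowest were Per2 at -0.991 and Per3 at -0.982, both of which encode repressors of the circadian clock. Per2 was 168, 155 and 138 normalized counts in control, 177 and 386 in Nrf2 KO, 1178 and 1256 in p65 KO, and 589, 607 and 897 in DKO. The order of the genotypes was thus the reverse of that of Clpx, without overlap. The p65 KO libraries lay above every control library for 26.2% of all genes, and the DKO libraries above every Nrf2 KO library for 15.8%. A share for the whole order was not computed. Per3 showed the same order of means, and its Nrf2 KO libraries were far apart, at 87 and 467, where Clpx was 7332 and 4522.

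These correlations rest on 10 libraries that share their genotypes and are a description. Leaving out each library in turn, r was between -0.997 and -0.989 for Per2 and between -0.999 and -0.978 for Per3. When the genotype means were subtracted, r was -0.855 for Per2, -0.964 for Per3 and 0.823 for Bmal1, an activator of the clock whose pooled r with Clpx was 0.951. It was 0.64 for the clock gene Npas2, whose pooled r was 0.91, and 0.893 and 0.856 for Mreg and Ccng2. With libraries scaled to equal totals, 3 of the 5 genes most like Clpx remained among the highest 5.

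**Figure D2:**
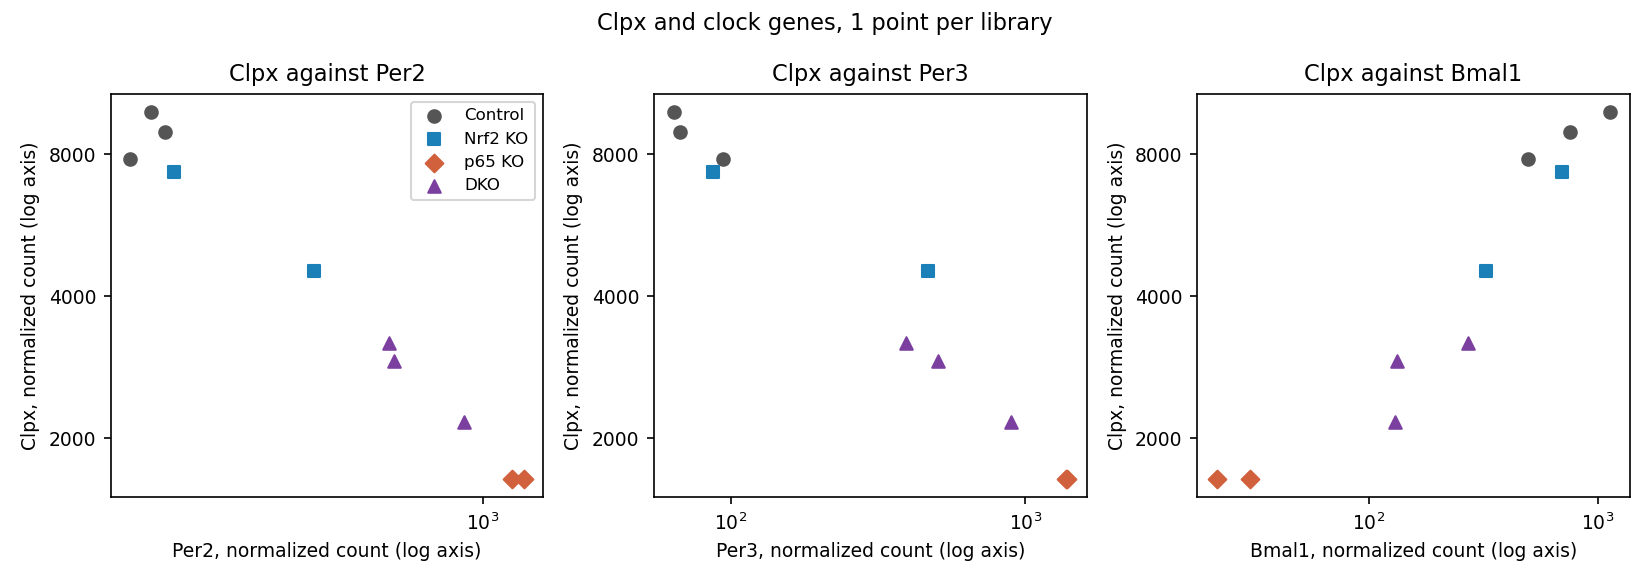
Normalized counts of Clpx (vertical, log axis) against those of Per2, Per3 and Bmal1 (horizontal, log axes), 1 point per library, with a symbol and colour for each genotype. Clpx lies lower where Per2 and Per3 lie higher, from control at 7825 or more to p65 KO at 1640 and 1644, and the Nrf2 KO library with Clpx at 4522 is the one with Per3 at 467.

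Of 14 clock genes, 8 rose and 4 fell in p65 KO against control, where 14.9% of all genes passed, and 5 rose and 3 fell in DKO against control, where 5.45% passed. In p65 KO against control, the log2 fold change was 2.98 for Per2 (SE 0.28) and -4.93 for Bmal1 (SE 0.56). Both are given with no test, because they are set beside Clpx, which was chosen on that comparison. In DKO against Nrf2 KO, where 0.513% of all genes passed, 0 of the 14 passed with edgeR, 7 had an unadjusted p under 0.05, and DESeq2 called 4. Per2 there had a log2 fold change of 1.30. Whether the clock genes and Clpx differ by the time of killing was not tested.

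Alas1 was lowest in Nrf2 KO. Its normalized counts were 14138, 10406 and 4732 in control, 1786 and 1594 in Nrf2 KO, 10105 and 11775 in p65 KO, and 3088, 8290 and 5114 in DKO. Both Nrf2 KO libraries lay below all other libraries, and for 13.6% of all genes they lay below every control library. The p65 KO libraries lay within the range of control for Alas1. The spread was wide in control and DKO, where the highest library was 2.99 and 2.68 times the lowest, while in Nrf2 KO and p65 KO it was at most 1.17 times the lowest. Of the 9 genes, 1 passed in Nrf2 KO against control, against 0.726% of all genes, and it was Alas1, which fell with a log2 fold change of -2.53 (SE 0.472, edgeR adjusted p = 0.0412) to 0.173 times the control mean.

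That call held under each of the 8 other scalings, filters, models and tools tried, with log2 fold changes between -2.67 and -2.52, but it was lost in 7 of the 10 fits without 1 library. The adjusted p was 0.108 and 0.106 without Control 1 and Control 2, 0.254 and 0.439 without Nrf2 KO 1 and Nrf2 KO 2, 0.0703 and 0.0712 without p65 KO 1 and p65 KO 2, and 0.0511 without DKO 3. The log2 fold change stayed between -2.87 and -2.16. In DKO, where Nrf2 was lost as well, Alas1 did not differ past the threshold from control (-0.83, SE 0.382, edgeR adjusted p = 0.23), from p65 KO (-0.99, edgeR adjusted p = 0.194) or from Nrf2 KO (1.70, SE 0.453, edgeR adjusted p = 0.136), although all 3 DKO libraries were above both Nrf2 KO libraries, as for 15.8% of all genes. Without 1 library at a time, these log2 fold changes were between -1.25 and -0.46 from control, -1.42 and -0.70 from p65 KO, and 1.28 and 1.995 from Nrf2 KO. DESeq2 called Alas1 higher in DKO than in Nrf2 KO (1.72, adjusted p = 0.0352). In p65 KO against control its log2 fold change was 0.17 (SE 0.422), and -0.17 without Control 3.

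Alas2, which encodes the form of the synthase known from red cell precursors, was between 3039 and 4623 normalized counts in all 10 libraries. Per kb of transcript, the level of Alas1 was 1.82, 1.95 and 0.758 times that of Alas2 in control, 0.293 and 0.268 times in Nrf2 KO, 1.98 and 2.02 times in p65 KO, and 0.413, 1.09 and 0.668 times in DKO. Per length, Alas2 was therefore the more abundant transcript of the pair in both Nrf2 KO libraries, and also in Control 3, DKO 1 and DKO 3. The 4 globin genes of the erythroid markers summed to between 35.92 and 181.9 normalized counts in every library but DKO 1 and DKO 2, at 1141 and 401.7, so Alas2 was not in proportion to the globins. Its log2 fold change was between -0.24 and 0.47 in the 5 pairwise comparisons and its edgeR adjusted p was at least 0.0957.

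**Figure D3:**
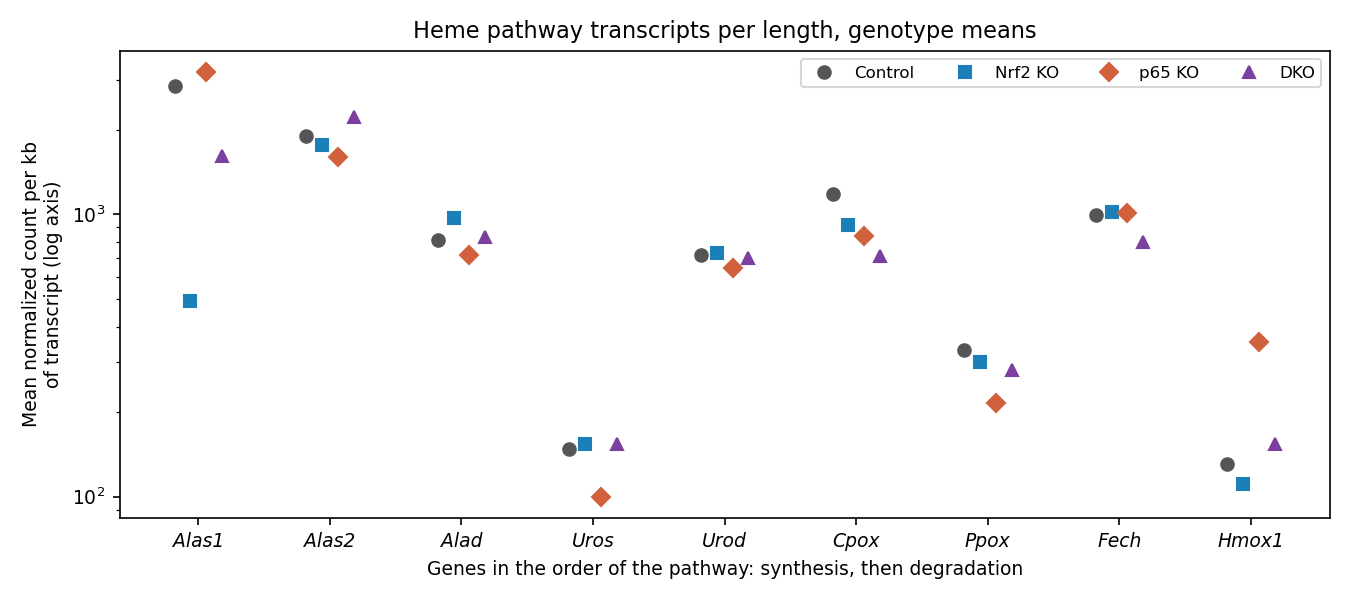
Genotype means of normalized counts per kb of transcript (vertical, log axis) for genes of heme synthesis in the order of the pathway, followed by Hmox1, with a symbol for each genotype. Alas1 spans the widest range, from 495 in Nrf2 KO to 3200 in p65 KO, while Alad and Urod stay within 647 and 973.

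Of 24 regulators of Alas1 and Hmox1 transcription, 1 rose and 1 fell in Nrf2 KO, where 0.726% of all genes passed. The one that rose was Nfe2l2 itself. The one that fell was Nr1i3, which encodes CAR, a nuclear receptor known to induce Alas1 together with P450 genes. Nr1i3 was 4301, 4522 and 4679 normalized counts in control, 1966 and 1892 in Nrf2 KO, 6446 and 5794 in p65 KO, and 1329, 1384 and 2148 in DKO. Every library without Nrf2 was below every library with it. The Nrf2 KO libraries lay below every control library for 13.6% of all genes, and the DKO libraries for 13.2%. A share for the whole pattern was not computed. Nr1i3 fell with a log2 fold change of -1.22 in Nrf2 KO (SE 0.19, edgeR adjusted p = 0.0172), -1.48 in DKO against control (SE 0.17, edgeR adjusted p = 0.00133) and -1.92 in DKO against p65 KO (SE 0.18, edgeR adjusted p = 0.000791).

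In p65 KO, 6 of the 24 regulators rose and 3 fell, where 14.9% of all genes passed, and 8 of the 24 are also among the clock genes. The proline and acidic amino acid-rich factors Dbp, Tef and Hlf, known activators of Alas1 under the clock, were among those that rose. Their log2 fold changes were 4.35, 2.50 and 1.20 (edgeR adjusted p = 0.0213, 0.0057 and 0.00391). Dbp was 45, 54 and 426 normalized counts in control and 87 and 1719 in Nrf2 KO. Whether these factors bear on the level of Alas1 was not tested. Of the 24 regulators, 0 passed in DKO against Nrf2 KO with edgeR (0.513% of all genes did), 5 had an unadjusted p under 0.05, and DESeq2 called 2.

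Between the first and the last step of synthesis, the differences were small. Alad, which joins a pair of aminolevulinate molecules, was between 2962 and 4533 normalized counts over all 10 libraries, and Urod, which decarboxylates uroporphyrinogen, between 2352 and 2973. Neither passed in any comparison in which the members were tested. Their log2 fold changes were between -0.23 and 0.26 in all 5 pairwise comparisons.

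Uros, which closes the porphyrin ring, was 536, 590 and 514 normalized counts in control, 584 and 563 in Nrf2 KO, 386 and 360 in p65 KO, and 653, 526 and 528 in DKO. Both p65 KO libraries were below all 8 others, and for 23.8% of all genes they were below every control library. In p65 KO its log2 fold change from control was -0.55 (SE 0.136), and in DKO against p65 KO it rose with one of 0.61 (SE 0.136, edgeR adjusted p = 0.0352). That call was lost with scaling to equal totals (0.34, edgeR adjusted p = 0.148) and with the replicate block (edgeR adjusted p = 0.0574). With p65 KO and DKO alone in the model, it was lost as well (0.62, edgeR adjusted p = 0.113). It was also lost without Control 1 (edgeR adjusted p = 0.0515), DKO 1 (edgeR adjusted p = 0.089), either Nrf2 KO library or either p65 KO library.

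Cpox, the oxidase of the sixth step, was 4405, 3978 and 3472 normalized counts in control, 3199 and 2925 in Nrf2 KO, 2774 and 2803 in p65 KO, and 1892, 2204 and 3068 in DKO. All 7 knockout libraries were below the 3 control libraries, a pattern that Nrf2 KO showed for 13.6% of all genes, p65 KO for 23.8% and DKO for 13.2%. The 2 members that passed in DKO against control, where 5.45% of all genes passed, were Cpox and Clpx. Nothing is read from that count, since the control libraries are among those on which Clpx was chosen. Cpox fell with a log2 fold change of -0.73 (SE 0.163, edgeR adjusted p = 0.029). This call of Cpox was lost with the replicate block (-0.75, edgeR adjusted p = 0.0538) and with DKO and control alone in the model (-0.73, edgeR adjusted p = 0.0698). It was also lost without Control 1, Control 2, DKO 1 or DKO 2 (log2 fold changes of -0.64, -0.72, -0.58 and -0.67, edgeR adjusted p between 0.0755 and 0.11). The log2 fold change of Cpox was -0.37 in Nrf2 KO (edgeR adjusted p = 0.601) and -0.50 in p65 KO (SE 0.183).

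Ppox, which carries out the last oxidation before iron is inserted, was 1018, 990 and 788 normalized counts in control, 846 and 842 in Nrf2 KO, 646 and 564 in p65 KO, and 765, 672 and 938 in DKO. The p65 KO libraries were again the lowest 2 of the 10, with a log2 fold change from control of -0.62 (SE 0.164). For 23.8% of all genes they were below every control library. Fech, the ferrochelatase that inserts iron, was between 5855 and 7149 normalized counts in control, Nrf2 KO and p65 KO, and 4955, 5837 and 4761 in DKO. Every DKO library was below every other library. For 13.2% of all genes the DKO libraries were all below control, and for 16.4% all below Nrf2 KO. The log2 fold change of Fech in DKO against control was -0.31 (SE 0.12, edgeR adjusted p = 0.159). With scaling by library totals alone, Fech passed in DKO against p65 KO.

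In p65 KO against control, 4 of the 9 members passed the threshold (Clpx, Uros and Ppox lower, Hmox1 higher), against 14.9% of all genes, and since Clpx was chosen on that comparison nothing is read from the count. With scaling to equal totals, which moved the median log2 fold change of all genes with a mean of at least 50 by 0.18, Clpx and Hmox1 were the members that passed. When the log2 fold change also had to reach 1 or -1, the members that passed were Alas1 in Nrf2 KO (0.55% of all genes), Clpx and Hmox1 in p65 KO (6.59%), Clpx in DKO against control (2.38%, from which nothing is read for Clpx), Clpx in DKO against Nrf2 KO (0.433%) and Hmox1 in DKO against p65 KO (1.78%). In the interaction, 0.455% of all genes passed that limit and none of the 9 with edgeR. The median log2 fold change of the 9 was -0.17 in p65 KO, -0.14 in Nrf2 KO, -0.24 in DKO against control, -0.09 in DKO against Nrf2 KO and 0.12 in DKO against p65 KO, where those of all genes tested were 0.00, 0.00, 0.03, 0.01 and 0.00. In the interaction it was 0.14, against 0.01.

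**Figure D4:**
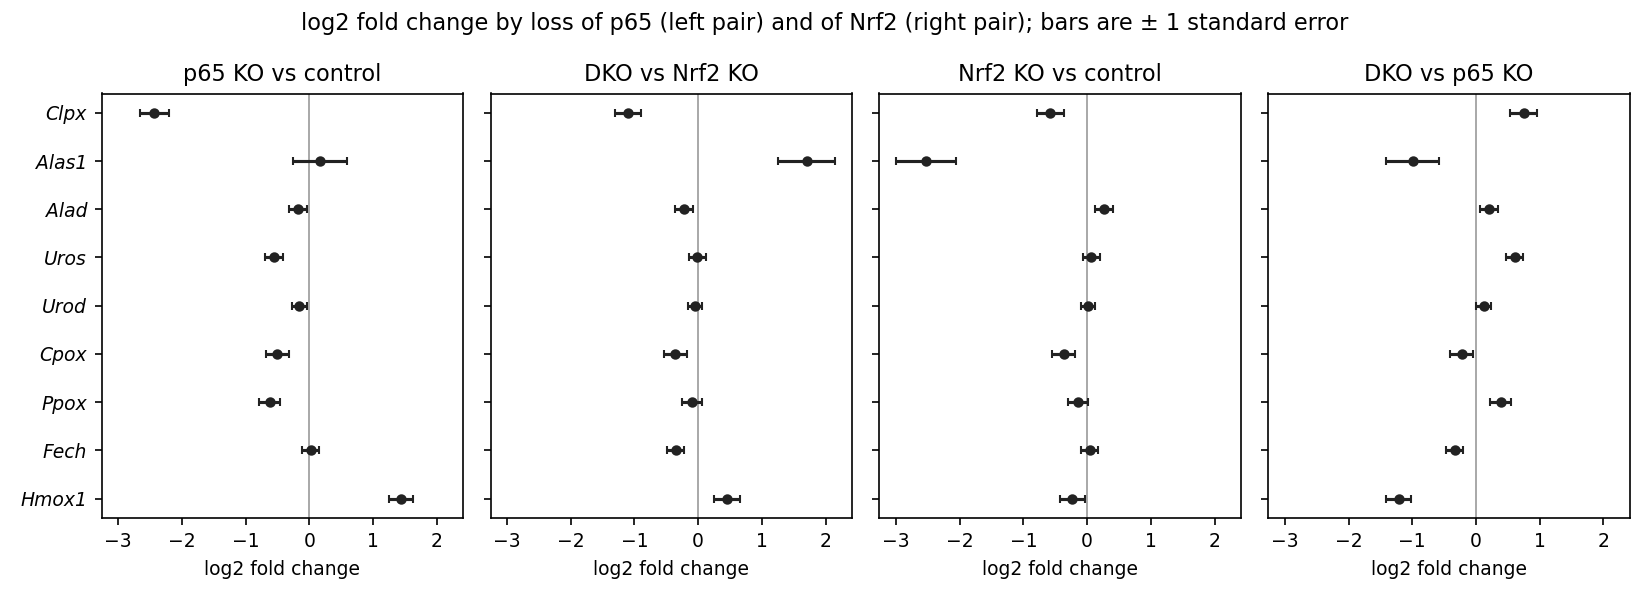
log2 fold changes (horizontal axis) with bars of 1 standard error on each side for the 9 genes in 4 comparisons, the left pair by loss of p65 and the right pair by loss of Nrf2. Clpx lies at -2.43 and -1.11 in the left pair, Alas1 at -2.53 in Nrf2 KO against control, and Hmox1 at 1.44 in p65 KO against control and -1.21 in DKO against p65 KO.

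Hmox1 (chromosome 8, 75820241 to 75827217, forward strand) showed no difference past the threshold between Nrf2 KO and control. Its normalized counts were 216, 181 and 219 in control, 176 and 175 in Nrf2 KO, 680 and 438 in p65 KO, and 262, 212 and 248 in DKO. Both p65 KO libraries stood above all others, which lay between 175 and 262, and 26.2% of all genes were likewise above every control library. The log2 fold change in Nrf2 KO was -0.23 (SE 0.201, edgeR adjusted p = 0.817), and in p65 KO against control it was 1.44 (SE 0.192). In DKO against control it was 0.23 (edgeR adjusted p = 0.478).

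In DKO against p65 KO, 2 of the 9 members passed, against 4.11% of all genes, and these were Uros and Hmox1. Nothing is read from that count, since the p65 KO libraries are among those on which Clpx was chosen. Hmox1 fell with a log2 fold change of -1.21 (SE 0.192, edgeR adjusted p = 0.0102). Without p65 KO 1, the library with the highest Hmox1, it was -0.86 (edgeR adjusted p = 0.0839), and the call held without each of the other 9. With p65 KO and DKO alone in the model, the adjusted p was 0.0579. The macrophage markers, like Hmox1, were highest in p65 KO, and so were those of stellate and sinusoidal endothelial cells. The summed level of the macrophage markers was 7.86 times control in p65 KO and 3.25 times in DKO. The p65 KO library with the higher Hmox1 (680) also had the higher sum (6236). Within Nrf2 KO the sums were 815.6 and 262.7, while Hmox1 was 176 and 175. In DKO, however, the sum was 3.25 times control while Hmox1 was 1.17 times control. The part of these cells in the level of Hmox1 was not tested.

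**Figure D5:**
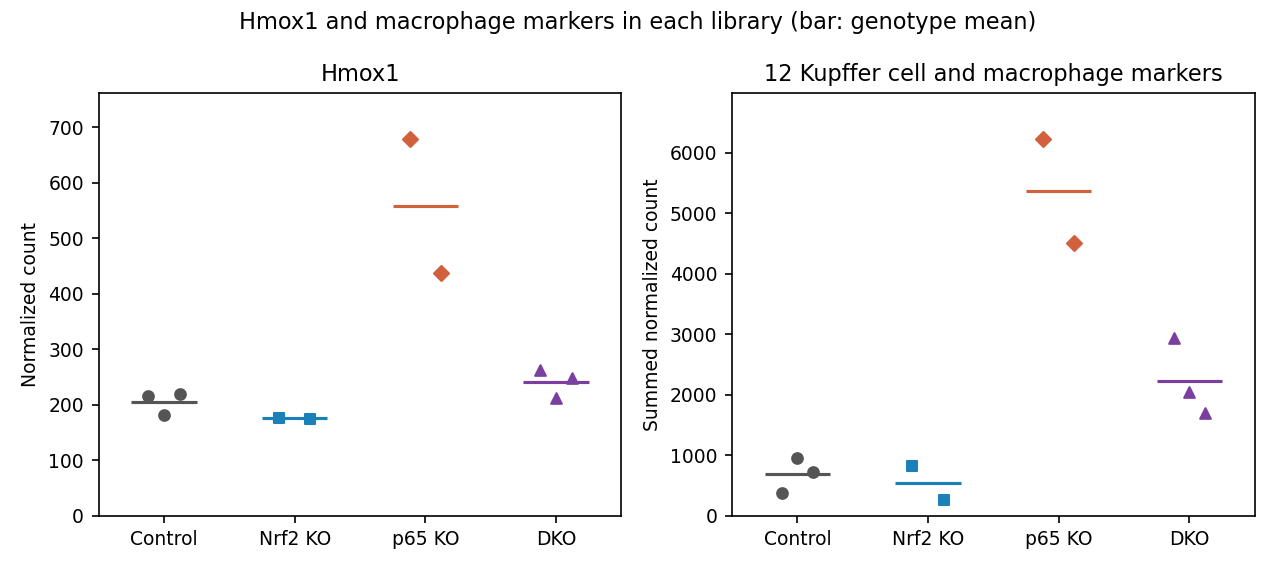
Normalized counts of Hmox1 (left) and summed normalized counts of 12 Kupffer cell and macrophage markers (right), both on axes that start at 0, in each library by genotype with a bar at the mean. Both are highest in p65 KO, at 680 and 438 and at 6236 and 4518, whereas in DKO the markers lie between 1706 and 2935 and Hmox1 between 212 and 262.

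Many other genes known to respond to Nrf2 fell in the comparison in which Hmox1 did not pass. Of 14 antioxidant response genes, 9 fell and none rose in Nrf2 KO, where 0.726% of all genes passed, with a median log2 fold change of -1.10. In DKO against control, where 5.45% of all genes passed, 12 fell, with a median of -1.35. Gstm1, a glutathione transferase, fell with a log2 fold change of -2.96 in Nrf2 KO (SE 0.22, edgeR adjusted p = 0.000219), and Gsta2, of another class, with one of -2.36 (SE 0.24, edgeR adjusted p = 0.000999). Fth1 and Ftl1, the ferritin chains that store the iron set free from heme, fell in Nrf2 KO with log2 fold changes of -0.70 and -0.95 (edgeR adjusted p = 0.0491 and 0.0175). Bach1 was between 1370 and 1419 normalized counts in control, 3284 and 2469 in p65 KO, and between 813 and 1299 in DKO. It rose in p65 KO with a log2 fold change of 1.04 (SE 0.21, edgeR adjusted p = 0.0123) and fell in DKO against p65 KO with one of -1.36 (SE 0.22, edgeR adjusted p = 0.0102), the same direction as Hmox1 in that comparison.

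Of 16 genes of heme degradation, binding and export, 1 fell in Nrf2 KO, while p65 KO had 2 that fell and 1 that rose, and DKO against control 3 and 1. The shares of all genes that passed were 0.726%, 14.9% and 5.45%, so that the count in p65 KO was near the share of all genes. Abcg2, an exporter of porphyrins, fell in all 3, with log2 fold changes of -1.16, -0.75 and -0.93 (edgeR adjusted p = 0.0253, 0.0277 and 0.0138). Blvrb, a biliverdin reductase, fell in DKO with one of -0.90 (SE 0.15, edgeR adjusted p = 0.00816), and so did Pgrmc1, a heme-binding membrane protein, with one of -0.63 (SE 0.11, edgeR adjusted p = 0.0107). Its relative Pgrmc2 fell in p65 KO with one of -0.67 (SE 0.14, edgeR adjusted p = 0.0116). The gene that rose was Cd163, the hemoglobin scavenger receptor, which is itself 1 of the 12 macrophage markers.

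Of 16 genes that supply the pathway with substrates, iron or transport, 3 fell and none rose in p65 KO, a count near the share of all genes that passed there (14.9%). Sucla2, a subunit of the enzyme that forms succinyl-CoA from succinate, and Abcb10, a mitochondrial transporter linked to heme synthesis, were among those that fell in p65 KO, with log2 fold changes of -0.43 and -0.34 (edgeR adjusted p = 0.0309 and 0.0474). Slc25a37, the mitochondrial iron importer mitoferrin 1, fell in DKO against p65 KO with one of -0.79 (SE 0.17, edgeR adjusted p = 0.0343). In Nrf2 KO against control, where 0.726% of all genes passed, 0 of the 16 passed with edgeR, with 2 at an unadjusted p under 0.05 and 2 by DESeq2.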

How the data were processed

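Per the methods of the study, single-end reads from stranded poly-A libraries were quantified with Salmon 1.10.3 against GRCm39 and GENCODE M33. Hepatocytes came from liver perfusion with Liberase, centrifugation at low speed and a Percoll step. The authors deposited 1 whole-number estimated count per gene and mouse in a table named as normalized. Its totals and size factors differ between libraries, so the deposited values were used as estimated counts without normalization. All columns were assigned by name.

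The test was edgeR's quasi-likelihood test (edgeR 4.0.16, R 4.3.3, TMM) on genes whose counts summed to 10 or more, with the 4 genotypes in 1 model and Benjamini-Hochberg adjustment over 13641 genes. A gene passed at an adjusted p of at most 0.05. The labels do not say that mice of a genotype came from separate litters or days. P-values measure the spread between these mice. Replicates differed by more than sampling noise.

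The members and all lists were chosen with earlier results of these data known. Named are the members, the targeted genes, the up to 5 genes of each list with the lowest p per comparison, the genes most and least like Clpx, and those most like Alas1 and Hmox1. Dbp, Alas2 and Clpp were named after their values were seen. For Alas1 the most alike were Slc35e3 (r = 0.913), Acsf2 (0.908) and Hycc2 (0.89), and for Hmox1 Ubfd1 (0.96), Vps37c (0.959) and Lgmn (0.949). A few genes of the lists are not reported here by name. Correlations of deviations from genotype means were added after the data had been seen.

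Positions and canonical transcript lengths, used for levels per kb, were read from GENCODE M39 (GRCm39), where 21926 of 21939 identifiers were found. Lengths of 1577 bases (Hmox1) to 6477 (Fech) are those of 1 transcript each, and the M33 transcripts used by the authors may differ. At most 6.2% of the 31-base words of a member occur in another gene. Salmon was run with a stranded setting; genes on the opposite strand overlap several members, and Alad also overlaps a non-coding gene on its own strand, Gm69517. Promoter windows are from RefSeq (GRCm38.p6 table) and were placed on GRCm39 by exact match. Alternatives were DESeq2 1.42.0, other scalings and filters, the replicate block, only the 2 genotypes compared, the study's added limit of 1 on the log2 fold change, and leaving out each library. Figures were drawn with matplotlib 3.10.9.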

Additional observations from a re-analysis of the deposited data

How the results depend on the processing

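With 2 or 3 mice per genotype, calls near the threshold depended on single libraries. Of 465 alternative values of single genes, 407 kept their direction and side of the threshold, 48 lost the call, 9 gained one and 1 changed sign, which was Alas1 in p65 KO against control without Control 3 (-0.172, and 0.532 without Control 1, the range of the fits without 1 library). Without 1 library at a time, the number of members that passed was 0 to 1 in Nrf2 KO, 2 to 5 in p65 KO and 1 to 2 in DKO against control, 0 to 1 in DKO against Nrf2 KO, 0 to 3 in DKO against p65 KO, and 0 to 1 in the interaction. With equal totals or the limit of 1 on the log2 fold change, 2 passed in p65 KO. With that limit, 1 passed in DKO against control and 1 in DKO against p65 KO. With only the 2 genotypes compared, 1 passed in DKO against control, 0 in DKO against Nrf2 KO and 0 in DKO against p65 KO. In DKO against Nrf2 KO, DESeq2 called 2, and equal upper quartiles and a filter on a mean of 10 counts called 0. In the interaction, DESeq2 and no filter each called 1. Of the 5 genes most like Clpx, 3 were shared with equal totals and 2 to 4 without 1 library.

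Same-numbered libraries of different genotypes did not deviate together (r between -0.232 and 0.113 over 13 pairs, 1 over 0.1), so the numbers do not pair the mice. With the replicate block, 1 member passed in DKO against control, 0 in DKO against Nrf2 KO and 1 in DKO against p65 KO. Equal totals shifted the median of all log2 fold changes (genes averaging 50 or more) by 0.177 for p65 KO, and for DKO against p65 KO by -0.27. The cause of these changes was not tested.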

Other observations

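Of 16 P450 enzymes and other hemoproteins or their partners, 5 rose and 2 fell in p65 KO against control, where 14.9% of all genes passed. In DKO against control 1 rose and 2 fell (5.45% of all genes), and in DKO against p65 KO 2 fell (4.11%). In Nrf2 KO 0 passed with edgeR (0.726%), 4 had an unadjusted p under 0.05, and DESeq2 called 0. In DKO against Nrf2 KO 0 passed with edgeR (0.513%), 6 had an unadjusted p under 0.05, and DESeq2 called 2. Por, the reductase that passes electrons to microsomal P450 enzymes and to heme oxygenase, was 5487, 4521 and 6088 normalized counts in control and 12138 and 17875 in p65 KO, and rose there with a log2 fold change of 1.48 (SE 0.27, edgeR adjusted p = 0.00711). Cyp7a1, the rate-limiting enzyme of bile acid synthesis, rose in p65 KO with one of 3.17 (SE 0.64, edgeR adjusted p = 0.011) and in DKO with one of 3.19 (SE 0.61, edgeR adjusted p = 0.0163). Cyp3a11, a major drug-metabolizing P450, fell in p65 KO with one of -1.05 (SE 0.26, edgeR adjusted p = 0.0242).

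Cyp2a5, a P450 known to respond to CAR and Nrf2, was 10066, 4659 and 5153 normalized counts in control, 1059 and 1897 in Nrf2 KO, 28927 and 36009 in p65 KO, and 2149, 2538 and 9577 in DKO. Both p65 KO libraries were above all others and both Nrf2 KO libraries below all others. Against control alone, the p65 KO libraries were all higher for 26.2% of all genes and the Nrf2 KO libraries all lower for 13.6%. It rose in p65 KO with a log2 fold change of 2.29 (SE 0.57, edgeR adjusted p = 0.0244) and fell in DKO against p65 KO with one of -2.77 (SE 0.58, edgeR adjusted p = 0.0293), and in Nrf2 KO it was -2.16 and did not pass. Cyp2e1, which oxidizes ethanol and carbon tetrachloride, also fell in DKO against p65 KO, with one of -1.06 (SE 0.22, edgeR adjusted p = 0.0296).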
